A study of Mus musculus with 50 samples.

Results

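The oxytocin and vasopressin system was described here by 4 genes of the 24552 listed in both count tables: *Oxt* and *Avp*, which encode the precursors of the peptide hormones oxytocin and vasopressin, and *Oxtr* and *Avpr1a*, which encode the oxytocin receptor and the vasopressin receptor of the V1a type. The genes were found by symbol and were chosen by results of these data already known, above all their difference between D1-IPs and D2-IPs of control mice. The difference between the IPs of control mice is therefore given as a description, with no test.

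RNA of the nucleus accumbens (NAc) was sequenced from C57BL/6 mice with a RiboTag (RT) allele, in which Cre recombinase switches on an HA-tagged ribosomal protein. Ribosomes were precipitated with an antibody to HA from RT; D1-Cre mice (D1-IPs) or RT; D2-Cre mice (D2-IPs), and inputs were made from what was left of the same homogenates. Both Cre lines are transgenes driven by a dopamine receptor promoter, which is active in medium spiny neurons (MSNs) but also in other neurons that use it, so that a D1-IP holds mRNA of all cells with Cre in the punch. Each library came from 6 punches of 2 mm taken from 2 pooled mice of 8 to 12 weeks. Control mice (Con) were housed without defeat, and the other mice met an aggressor on up to 10 days of chronic social defeat stress and were sorted, 24 h after the last defeat, into resilient (Res) and susceptible (Sus) animals by a social interaction test. There were 13 D1-IPs (4 of Con, 4 of Res, 5 of Sus), 15 D2-IPs (5 of each group) and 18 inputs (3 of each group in either line). A further 4 D1-IP libraries, labelled Sirt1-KO, came from RT; Sirt1-floxed; D1-Cre male mice without defeat, in which Cre is meant to remove *Sirt1* from the same cells that carry the tag; the labels give no age for them. Libraries of a group are separate pools of mice.

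Oxytocin and vasopressin are made as precursors in neurons of the hypothalamus, above all the magnocellular neurons of the paraventricular and supraoptic nuclei, whose axons release the peptides into blood and into distant brain regions. The receptors encoded by *Oxtr* and *Avpr1a* are coupled to Gq proteins, which raise calcium in the receiving cell through phospholipase C. In the NAc, oxytocin receptors are known for their part in social reward and pair bonding, and receptors of the V1a type for social behaviour in neighbouring regions such as the lateral septum.

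*Oxt* and *Avp* lie next to each other on chromosome 2, pointing toward each other, with 3565 bases between them (mm10, gene models of GENCODE vM21). *Oxt* (ENSMUSG00000027301) spans chr2:130576173-130577054 on the + strand and *Avp* (ENSMUSG00000037727) spans chr2:130580620-130582554 on the - strand, each with 3 exons. *Oxtr* (ENSMUSG00000049112) spans chr6:112473683-112489943 on the - strand. *Avpr1a* (ENSMUSG00000020123) spans chr10:122448499-122453452 on the + strand and lies within the antisense gene *Gm48877*, which shares no exon base with it and is not listed in the count tables. The libraries were stranded, but whether counting used strand is not given in the sources used here, so reads of an antisense RNA over its exons could not be told apart from *Avpr1a*.

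The sequences before the start sites of *Oxt* and *Avp* are shown because these neighbours differed most between the IPs and rose and fell together across inputs. They are the 250 bases before the RefSeq start (GRCm38.p6, the same assembly as mm10), *Oxt* at chr2:130575919-130576168 on the + strand and *Avp* at chr2:130582589-130582838 on the - strand, written 5′ to 3′ along the gene. Capitals mark AGGTCA, the half-site bound by nuclear hormone receptors, and the E-box CACGTG, which was searched with AGGTCA on both strands.
Oxt: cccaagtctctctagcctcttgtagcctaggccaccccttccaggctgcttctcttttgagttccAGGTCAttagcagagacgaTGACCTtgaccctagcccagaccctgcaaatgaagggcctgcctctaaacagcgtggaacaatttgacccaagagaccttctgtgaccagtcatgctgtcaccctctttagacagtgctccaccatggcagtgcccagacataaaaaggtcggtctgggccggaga
Avp: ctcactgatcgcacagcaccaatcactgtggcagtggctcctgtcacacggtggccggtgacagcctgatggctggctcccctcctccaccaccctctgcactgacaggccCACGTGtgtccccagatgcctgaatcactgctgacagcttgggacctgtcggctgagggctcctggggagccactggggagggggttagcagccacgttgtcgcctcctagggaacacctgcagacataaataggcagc
The *Oxt* window held AGGTCA once on the strand of the gene and once on the other strand (TGACCT), 185 and 166 bases before the start, and no E-box. At least 1 copy of AGGTCA stood in 14.02% and at least 2 copies in 1.36% of the 32851 RefSeq windows of that length. The *Avp* window held the E-box, 139 bases before the start, and no AGGTCA, and 6.02% of windows held that E-box. The window of *Oxtr* held both motifs once and that of *Avpr1a* neither. The motifs overlap nowhere in these windows.

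The libraries held 18384265 to 31009626 counts on genes in the IPs and inputs and 22174187 to 31785984 in those labelled Sirt1-KO. *Drd1* reached 332.4 ± 29.3 CPM (SD, n = 13; CPM are counts-per-million values scaled by library) in D1-IPs and 134.4 ± 21.1 (SD, n = 15) in D2-IPs, and *Drd2* 97.8 ± 11.8 and 343.4 ± 27.7, in the direction of the labels. In such bulk samples, fewer cells of a type and less RNA per cell cannot be told apart. Markers of MSNs summed to 5550 to 8918 CPM in D1-IPs and 9638 to 13146 in D2-IPs. All CPM are scaled by TMM factors of the 46 IPs and inputs. Those of the libraries labelled Sirt1-KO are scaled by factors of the second count table, which also holds the 4 D1-IPs of Con. Tests were edgeR quasi-likelihood tests over all genes that passed a filter on low counts, with p-values adjusted by the Benjamini-Hochberg method, and a gene is called when its adjusted p is under 0.05.

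*Oxt* had counts in 12 of 13 D1-IPs and at most 12 counts in any D2-IP. In D1-IPs it had 6, 61, 19 and 47 counts in Con, 75, 22, 38 and 34 in Res, and 46, 141, 15, 68 and 0 in Sus. In D2-IPs it had 1, 0, 1, 1 and 0 counts in Con, 1, 1, 0, 4 and 8 in Res, and 0, 12, 0, 1 and 0 in Sus. Every D1-IP of Con and of Res stood above every D2-IP of its own stress group, and in Sus 1 D1-IP (replicate 5) was at 0 while 1 D2-IP (replicate 2) reached 12. How many of all genes separate in this way was not counted, which holds for the separations given below too. The levels were 1.27 ± 1.00 CPM (SD, n = 4) in D1-IP Con, 1.73 ± 1.07 (SD, n = 4) in Res and 2.08 ± 2.12 (SD, n = 5) in Sus, against 0.0234 ± 0.0215, 0.111 ± 0.138 and 0.108 ± 0.220 (SD, n = 5 each) in D2-IPs. Summed over Con libraries, 133 counts in D1-IPs stood against 3 in D2-IPs, a ratio of 47.9 with an exact 95% interval of 16.0 to 235.2 that covers counting error only.

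*Avp* showed the same side at lower counts. D1-IPs held 10, 11, 16 and 27 counts in Con, 22, 8, 2 and 23 in Res and 2, 40, 6, 15 and 1 in Sus, and D2-IPs held 0 in all 5 Con libraries, 1, 0, 0, 1 and 1 in Res and 16, 1, 3, 0 and 0 in Sus. The Con and the Res groups did not overlap, and in Sus a single D2-IP (replicate 1, with 16 counts and 0.533 CPM) stood above 3 of the 5 D1-IPs in CPM. The mean level in D1-IP Con was 0.598 ± 0.320 CPM (SD, n = 4). A count of 0 allows up to 3 counts in each D2-IP Con library, 0.130 CPM on average, so that *Avp* was at least 4.61-fold higher in D1-IP Con.

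Of the receptors, *Oxtr* was measured best, with 294 to 748 counts in every D1-IP and 71 to 183 in every D2-IP. It had 347, 477, 501 and 452 counts in D1-IP Con, 396, 353, 436 and 410 in D1-IP Res and 357, 294, 748, 501 and 306 in D1-IP Sus. D2-IPs had 93, 145, 170, 104 and 71 counts in Con, 150, 172, 141, 117 and 108 in Res and 183, 163, 135, 128 and 156 in Sus. No D1-IP overlapped a D2-IP: the lowest D1-IP level was 11.2 CPM and the highest D2-IP level 7.36 CPM. The share of all genes without such overlap was not counted. The means were 16.7 ± 3.99 CPM (SD, n = 13) and 5.44 ± 1.31 CPM (SD, n = 15).

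*Avpr1a* was low in both lines and the groups overlapped. D1-IPs held 9, 39, 40 and 27 counts in Con, 38, 15, 36 and 37 in Res and 37, 28, 33, 36 and 16 in Sus. D2-IPs held 28, 10, 11, 7 and 5 in Con, 23, 11, 3, 9 and 18 in Res and 29, 19, 13, 16 and 8 in Sus. The means were 1.17 ± 0.384 CPM (SD, n = 13) and 0.553 ± 0.296 CPM (SD, n = 15), and in Con 1.06 ± 0.528 (SD, n = 4) against 0.519 ± 0.375 (SD, n = 5).

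**Figure D1:**
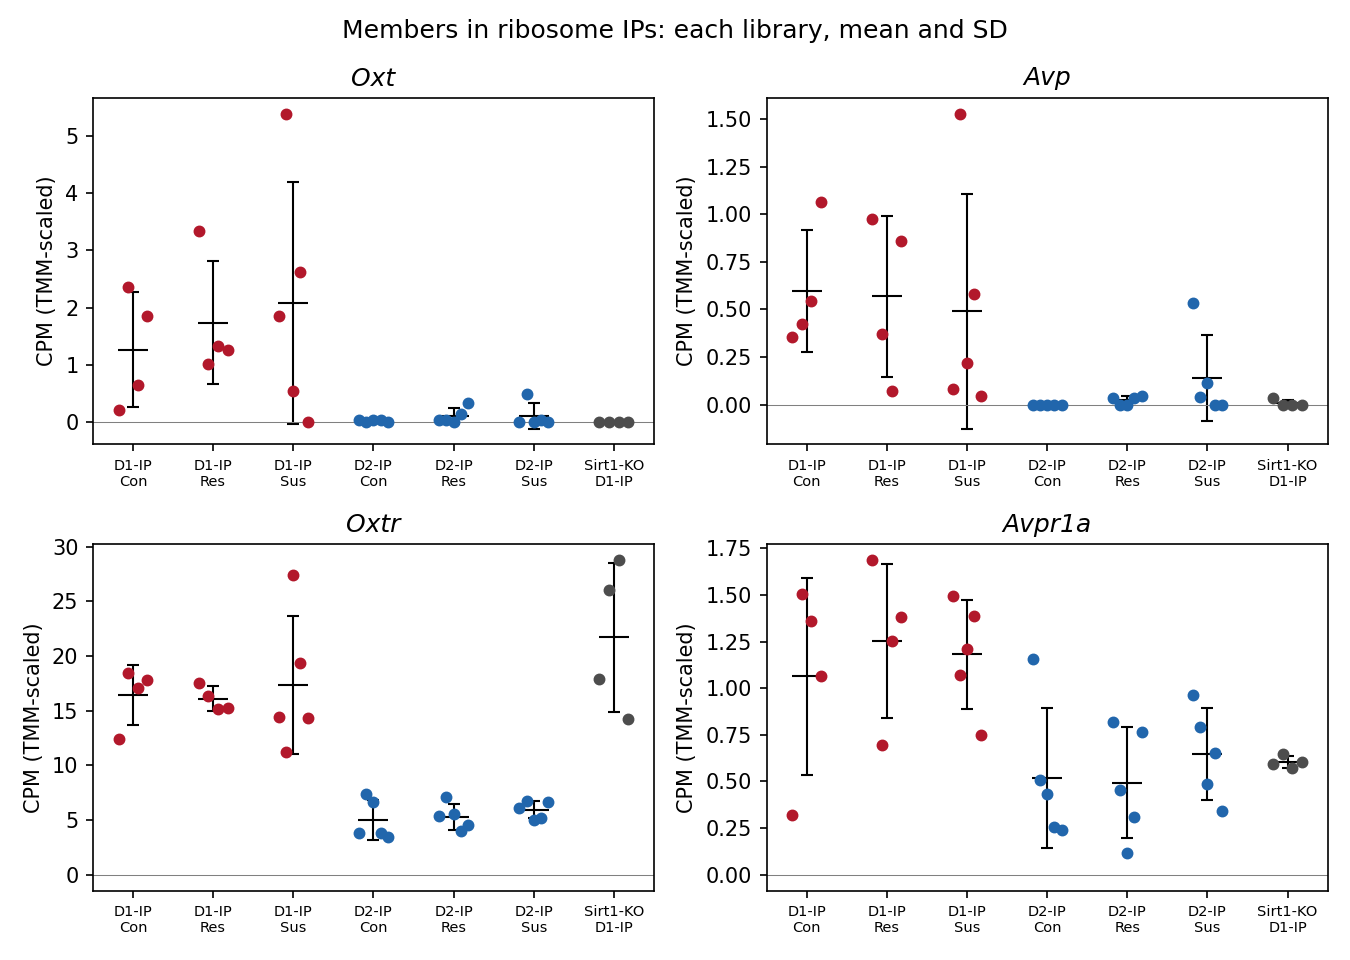
Level of each gene (TMM-scaled CPM, linear axes) in each IP library, with the mean and SD of each group; red, D1-IPs, blue, D2-IPs, grey, libraries labelled Sirt1-KO. D2-IPs lie near 0 for *Oxt* and *Avp*, no D1-IP overlaps a D2-IP for *Oxtr*, and the lines overlap for *Avpr1a*.

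The defeated mice, Res and Sus, were not part of the contrast used as a description, and there the question whether the genes differ between the lines was tested. *Oxt* and *Avp* passed the filter on low counts only through the D1-IPs, where they are high. With low counts in both lines they would not have been tested, so their calls add no support beyond the counts themselves. Of 14224 genes, 16.2% were called higher in D1-IPs than in D2-IPs over the defeated groups (33.2% in either direction). The log2 fold change was 4.10 ± 0.667 (SE; edgeR adjusted p = 1.98e-05) for *Oxt*, 3.01 ± 0.727 (adjusted p = 0.00227) for *Avp*, 1.56 ± 0.149 (adjusted p = 3.09e-09) for *Oxtr* and 1.09 ± 0.309 (adjusted p = 0.00730) for *Avpr1a*. In Res all 4 were called (9.62% of genes higher), with log2 fold changes of 3.93 for *Oxt*, 4.34 for *Avp*, 1.59 for *Oxtr* and 1.33 for *Avpr1a*. The call of *Avpr1a* in Res (edgeR adjusted p = 0.0396) was lost without D1-IP Res 1, 3 or 4 or D2-IP Res 2, 3 or 4 (adjusted p from 0.0720 to 0.129) and with the replicate number as a block (adjusted p = 0.0510). In Sus, where 9.48% of genes were called higher, *Oxt* (log2 fold change 4.27; exact permutation p = 0.0556) and *Oxtr* (1.53) were called, whereas *Avp* had 1.69 ± 0.838 (SE; adjusted p = 0.180) and *Avpr1a* 0.84 ± 0.421 (SE; adjusted p = 0.180). Without the D2-IP Sus library with 16 counts, *Avp* rose by 3.46 on the log2 scale in D1-IPs (edgeR adjusted p = 0.0208). An exact two-sided permutation test of log2 CPM over the 9 D1-IPs and 10 D2-IPs gave p = 0.000574 for *Oxt*, 0.00497 for *Avp*, 0.000595 for *Avpr1a* and 1.08e-05, the smallest p this design can give, for *Oxtr*. In Con, the contrast that chose the genes, 7.73% of genes were higher and 14% called in either direction.

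Per kilobase of exon, which allows levels of different genes to be compared, *Oxtr* (4.79 kb) and *Oxt* (0.537 kb) were alike in D1-IPs, at 3.48 ± 0.832 and 3.21 ± 2.74 CPM per kb (SD, n = 13), ahead of *Avp* at 0.949 ± 0.774 and *Avpr1a* at 0.437 ± 0.144. *Oxt* and *Oxtr* did not differ beyond their spread, nor did *Avp* and *Avpr1a*. In D2-IPs the order was *Oxtr* at 1.13 ± 0.274 CPM per kb (SD, n = 15), *Avpr1a* at 0.207 ± 0.111, *Oxt* at 0.150 ± 0.271 and *Avp* at 0.0923 ± 0.236, and the last 3 overlapped. The neighbours of the pair on the chromosome were at like levels in both lines. *Mrps26* had 26.8 ± 1.64 CPM (SD, n = 13) in D1-IPs and 26.2 ± 2.12 (SD, n = 15) in D2-IPs, *Ubox5* 16.4 ± 1.32 and 16.9 ± 0.978, *Fastkd5* 10.9 ± 1.21 and 11.4 ± 1.68, and *4930473A02Rik* 0.541 ± 0.301 and 0.499 ± 0.260.

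The input RNA addressed what the whole tissue held. *Oxt* varied from 0 to 129 counts among inputs, with 4, 28 and 0 counts in D1-input Con, 11, 36 and 1 in Res and 20, 108 and 0 in Sus, and 0, 5 and 40 in D2-input Con, 0, 1 and 113 in Res and 129, 0 and 1 in Sus. *Avp* had 4, 4 and 0, 4, 11 and 0, and 2, 22 and 0 counts in the D1-inputs of Con, Res and Sus, and 0, 2 and 2, 1, 0 and 6, and 33, 1 and 1 in the D2-inputs. For *Oxt*, high and low libraries occurred in both lines and in every stress group, whereas *Avp* had at most 4 counts in any Con input. The mean of *Oxt* was 1.02 ± 1.53 CPM (SD, n = 9) in D1-inputs and 1.47 ± 2.42 (SD, n = 9) in D2-inputs. *Oxtr* was steadier, at 9.79 ± 4.03 and 11.1 ± 3.77 CPM, as was *Avpr1a*, at 0.794 ± 0.236 and 0.754 ± 0.495 CPM. None of the 4 genes was called between the inputs of the lines, where 3 of 15063 genes (0.0199%) were. The log2 fold changes of D1-inputs over D2-inputs were -0.63 ± 0.961 (SE) for *Oxt*, 0.12 ± 0.822 for *Avp*, -0.19 ± 0.220 for *Oxtr* and 0.06 ± 0.330 for *Avpr1a*, and their edgeR adjusted p ran from 0.973 to 0.997.

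**Figure D2:**
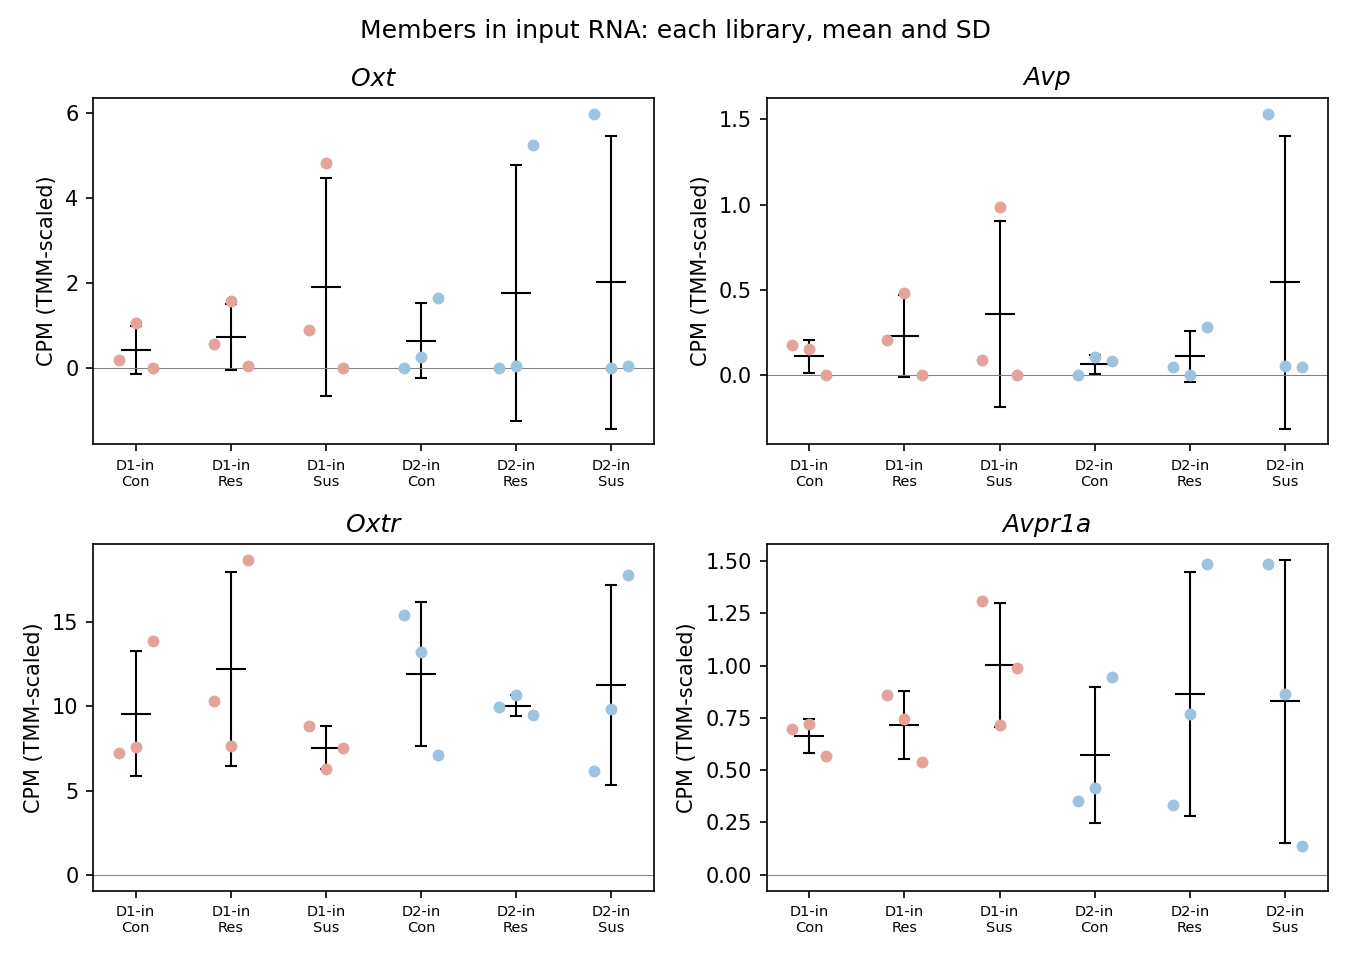
Level of each gene (TMM-scaled CPM, linear axes) in each input library by line and stress group, with the mean and SD of each group (n = 3). A few libraries of either line carry most *Oxt* and *Avp*, while *Oxtr* and *Avpr1a* spread less.

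How far precipitation enriched each mRNA over the input was fitted in 1 model of the 46 libraries, averaged over stress groups. In D1-Cre mice *Oxtr* rose by 0.79 ± 0.172 on the log2 scale (SE; edgeR adjusted p = 7.06e-05), and in D2-Cre mice it fell by 1.03 ± 0.170 (SE; adjusted p = 6.82e-07). Within stress groups its log2 fold change was 0.77 in Con, 0.39 in Res and 1.20 in Sus of D1-Cre mice, called in Con and Sus, and -1.24, -0.92 and -0.92 in D2-Cre mice, called in each. *Oxt* fell in D2-IPs by 4.21 ± 0.973 (SE; adjusted p = 0.000149) and had a log2 fold change of 0.99 ± 0.740 (adjusted p = 0.214) in D1-IPs. *Avp* had 1.40 ± 0.665 (SE; adjusted p = 0.0514) in D1-IPs and -2.49 ± 1.20 (adjusted p = 0.0546) in D2-IPs, and *Avpr1a* 0.58 ± 0.305 (adjusted p = 0.0779) and -0.43 ± 0.314 (adjusted p = 0.196). With the homogenate as a replicate block, *Avp* was called on both sides, at 1.36 (adjusted p = 0.0192) in D1-IPs and -2.35 (adjusted p = 0.0321) in D2-IPs. Of 15404 genes, 39.2% were called higher in D1-IPs than in inputs (81.9% in either direction) and 44.9% lower in D2-IPs (82.7% in either direction). Averaged over all 3 stress groups, the enrichment differed between the lines by 5.20 ± 1.25 (SE) on the log2 scale for *Oxt*, 3.90 ± 1.40 for *Avp*, 1.82 ± 0.242 for *Oxtr* and 1.01 ± 0.438 for *Avpr1a*. The IPs of control mice, whose values chose the genes, enter this average, the averages of the lines and the values of Con above. All of these are therefore descriptions, their calls and adjusted p included. Nothing is read from the 13.7% of genes called higher (25.5% in either direction). The same difference over Res and Sus, without any Con library, was added after the data were seen. It was called for *Oxt* (4.77 ± 1.39, SE; edgeR adjusted p = 0.0133) and *Oxtr* (1.72 ± 0.296; adjusted p = 5.50e-05) and not for *Avp* (2.75 ± 1.36; adjusted p = 0.169) or *Avpr1a* (1.10 ± 0.527; adjusted p = 0.156), where 9.57% of genes were called higher (16.8% in either direction).

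The *Oxt* result in D2-IPs rests on few inputs. Without D2-input Res 3 the log2 fold change averaged over stress groups was -2.16 (edgeR adjusted p = 0.436) and without D2-input Sus 1 it was -2.13 (adjusted p = 0.440). The difference between lines over Res and Sus was no longer called for *Oxt* without D2-input Res 3 (1.70; edgeR adjusted p = 0.801) or Sus 1 (1.69; adjusted p = 0.787). For *Oxtr* the calls averaged over stress groups held in either line without any 1 of the libraries. Within stress groups, its call in D1-Cre Con was lost without D1-input Con 1 (0.63; edgeR adjusted p = 0.0989) or Con 2 (0.64; adjusted p = 0.0934), and that in D2-Cre Sus without D2-input Sus 3 (-0.39; adjusted p = 0.286).

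Set beside the input of the same homogenate, *Oxt* in CPM was higher in the IP in 8 of 9 D1 pools and in 4 of 9 D2 pools, and *Oxtr* was higher in the IP in 8 of 9 D1 pools and in 0 of 9 D2 pools. The D2 pools whose inputs had most *Oxt* were Con 3, Res 3 and Sus 1, with 40, 113 and 129 counts, and their IPs held 1, 0 and 0 counts. The D1 pool with most *Oxt* in the input was Sus 2, with 108 counts, and its IP held 141. In 4 D2 pools the IP was higher in *Oxt* CPM than an input at or near 0, with 12 counts against 0 in Sus 2. In Con 1 and Res 1 it was 1 count against 0, and in Res 2 it was 1 count against 1. For *Avp* the D2 pool Sus 1 stood apart, with 33 counts in the input and 16 in the IP, the same IP that held no *Oxt*. *Avp* was higher in the IP in 7 of 9 D1 pools and in 1 of 9 D2 pools, and 2 D2 pools had none in either. *Avpr1a* was higher in the IP in 7 of 9 D1 pools and 4 of 9 D2 pools.

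**Figure D3:**
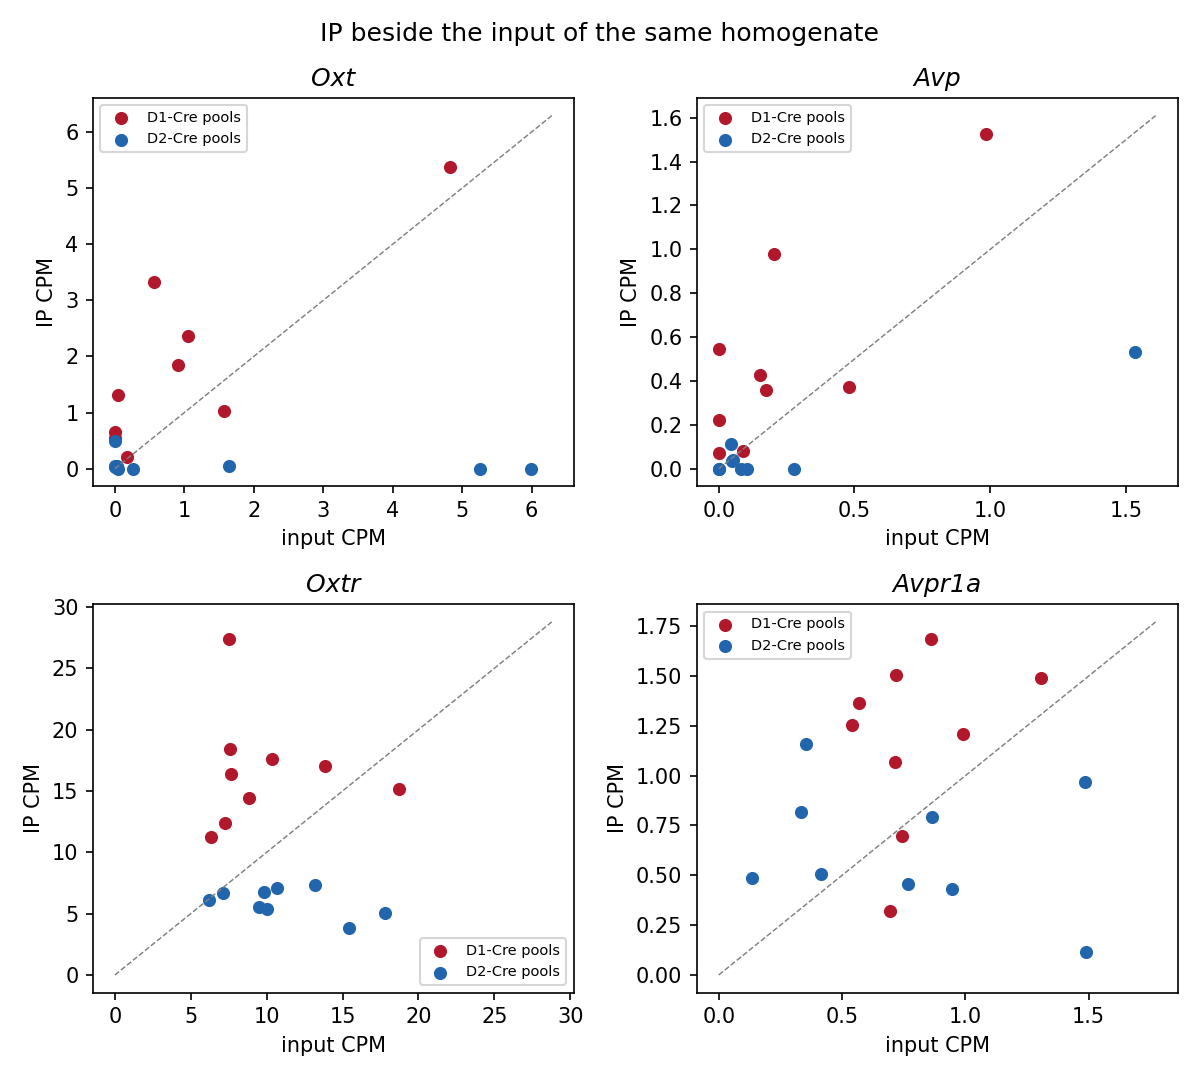
IP level against input level (CPM, linear axes) of the 18 homogenates with both libraries, red for D1-Cre and blue for D2-Cre pools; the dashed line marks equal levels. The 3 D2 pools with most *Oxt* in the input lie at or near 0 on the IP axis, and all 9 D2 pools lie below the line for *Oxtr*.

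Social defeat called none of the 4 genes in either line. In D1-IPs the log2 fold change of Sus over Con was 0.73 ± 0.726 (SE) for *Oxt*, -0.25 ± 0.742 for *Avp*, 0.08 ± 0.204 for *Oxtr* and 0.16 ± 0.427 for *Avpr1a*, and in Res over Con it was 0.46 ± 0.767, -0.08 ± 0.778, -0.03 ± 0.216 and 0.24 ± 0.448. All adjusted p in D1-IPs were at least 0.879. In D2-IPs *Oxtr* had 0.25 ± 0.218 (SE) in Sus over Con and 0.08 ± 0.219 in Res over Con, and *Avpr1a* 0.33 ± 0.456 and -0.08 ± 0.469. Within the lines, the only unadjusted p under 0.05 was that of *Avp* in D2-IPs of Sus over Con (edgeR, p = 0.0182; adjusted p = 0.999), which compares 16, 1, 3, 0 and 0 counts with 0 in all 5 Con libraries and gave p = 0.167 in an exact permutation test. Among all genes, 0% were called at an adjusted p under 0.05 in each IP contrast except D1-IP Res over Con, with 1 gene of 14224 (0.00703%), and at an unadjusted p under 0.05 the share was 5.34% in D1-IPs and 3.68% in D2-IPs for Sus over Con. In D2-IPs *Oxt* had 13 counts in Sus and 3 in Con, a ratio of 3.95 with an exact 95% interval of 1.09 to 21.6 for counting error only, and 12 of the 13 came from 1 library. In each line *Oxt* and *Avp* had larger standard errors than *Oxtr*. DESeq2 called none of the 4 genes in a stress contrast either.

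In inputs, where 0% of 15063 genes were called in any stress contrast, *Avp* in Sus over Con had a log2 fold change of 2.35 ± 1.04 (SE; edgeR unadjusted p = 0.0361; adjusted p = 0.979), and 4.51% of genes passed the unadjusted threshold. Of its 59 counts in the 6 Sus inputs, 33 came from 1 D2-input and 22 from 1 D1-input, and the exact permutation p was 0.344. *Oxt* had 1.91 ± 1.20 (SE; adjusted p = 0.979), *Oxtr* -0.19 ± 0.270 and *Avpr1a* 0.56 ± 0.404. The difference of the stress effect between D1-IPs and D2-IPs was called for none of the 4 genes, at an edgeR adjusted p of at least 0.999. The one edgeR p under 0.05 before adjustment was that of *Avp* for Sus over Con, at 0.0218, from the same D2-IPs.

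**Figure D4:**
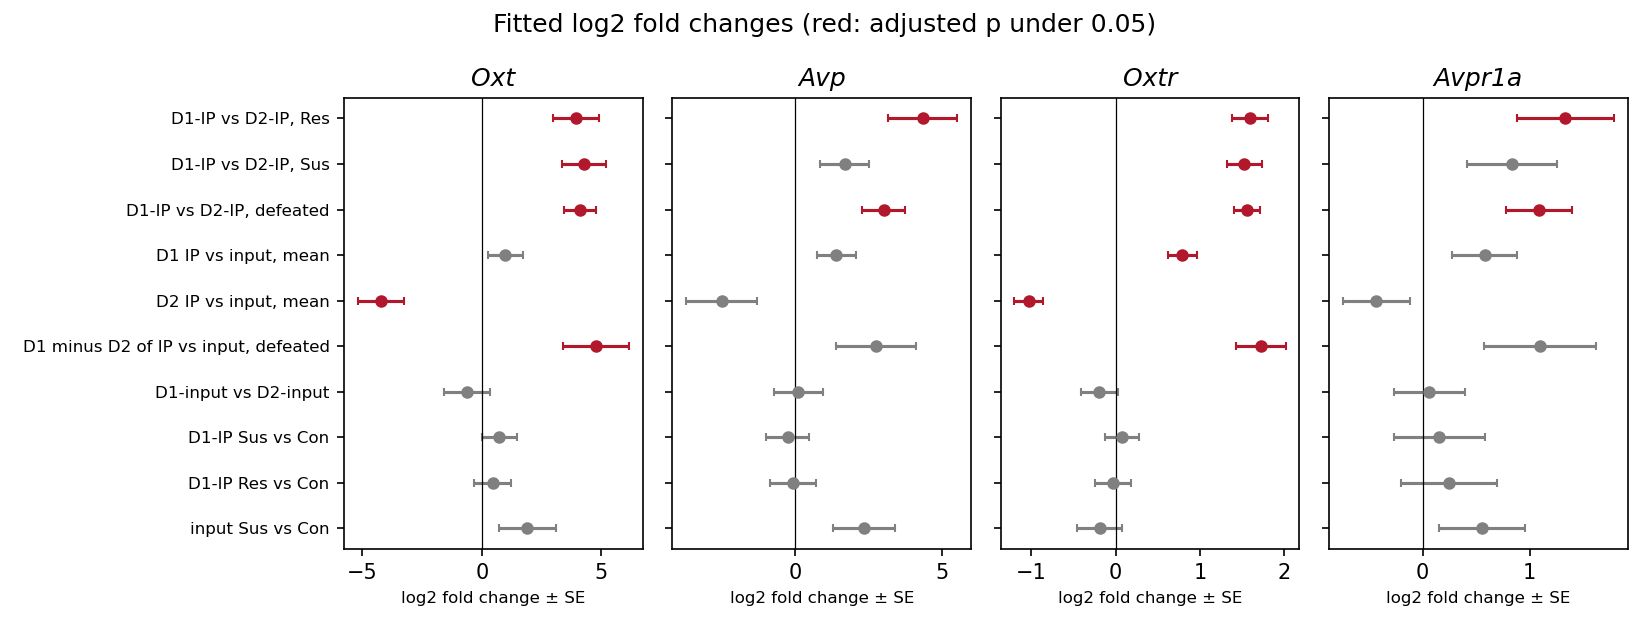
Fitted log2 fold change with its SE for each gene in the comparisons of lines, of IP and input and of stress groups; red points have an adjusted p under 0.05 over all genes, grey points do not, and each panel has its own axis. The points of D1-IPs over D2-IPs lie right of 0 for every gene, and the stress contrasts are all grey.

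Some markers of other cells moved with these genes. *Sim1* and *Otp*, transcription factors of hypothalamic neurons that make oxytocin and vasopressin, had summed counts of 26 and 38 in the 13 D1-IPs, 10 and 14 in the 15 D2-IPs, and 60 and 57 in the 18 inputs. *Sim1* had at least 1 count in all 7 inputs with 20 or more *Oxt* counts and in 2 of the other 11, and *Otp* in all 7 and in 4 of 11. The D2 pool Sus 1 had 31 and 26 counts of *Sim1* and *Otp* in the input and 7 and 8 in the IP, the highest of both genes among D2-IPs. In D1-IPs *Otp* had at least 1 count in all 9 libraries with 20 or more *Oxt* counts and in 3 of the other 4, and *Sim1* in 7 of 9 and in 2 of 4. Other genes of the same list went either way. Summed counts in the D1-IPs and D2-IPs were 1132 and 1654 for *Trh*, 180 and 180 for *Pomc* and 8 and 25 for *Agrp*. For *Pmch* they were 4 and 8, for *Crh* 3337 and 1505 and for *Ghrh* 22 and 14. For *Kiss1* they were 11 and 4, and for *Hcrt* 5 and 4. The full list of 10 hypothalamic genes, which leaves out *Oxt* and *Avp*, summed to 10.4 to 18.9 CPM in D1-IPs, 3.34 to 14.7 in D2-IPs and 4.51 to 22.7 in inputs; most of that sum was *Crh* and *Trh*, which neurons outside the hypothalamus also make, and *Hcrt* had at most 2 counts in any of the 46 libraries. The part of hypothalamic tissue in the *Oxt* and *Avp* levels was not tested.

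Markers of cortical excitatory neurons, among them *Slc17a7*, *Tbr1* and *Neurod6*, moved with *Oxtr*. Their sum was 380.6 to 1348 CPM in D1-IPs, 21.2 to 291.9 in D2-IPs and 70.8 to 1065 in inputs, so that the lines did not overlap, as for *Oxtr*. D1-IP Sus 3, with the highest *Oxtr* level (27.4 CPM), also had the highest sum of D1-IPs, and no marker of the list was at 0 in any group as a whole. The part of these cells in the difference of *Oxtr* was not tested. The 3 markers of the lateral septum, where V1a receptors are abundant, summed to 8.53 to 15.3 CPM in D1-IPs, 11.1 to 17.0 in D2-IPs and 13.4 to 23.0 in inputs.

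Markers of the other lists went either way. In D1-IPs, D2-IPs and inputs, the summed CPM ran from 17.3 to 44.3, 84.6 to 160.8 and 56.5 to 150.2 for cholinergic interneurons, from 56.0 to 80.2, 26.9 to 50.6 and 44.0 to 53.6 for parvalbumin interneurons, and from 104.7 to 145.9, 119.0 to 153.6 and 235.5 to 288.6 for somatostatin and NPY interneurons. Glia were depleted in IPs of both lines: oligodendrocyte genes summed to 449.4 to 714.7 CPM in D1-IPs, 368.7 to 611.4 in D2-IPs and 3239 to 5045 in inputs, astrocyte genes to 47.6 to 95.8, 37.9 to 64.2 and 791.1 to 1010.3, and microglial genes to 8.90 to 15.3, 11.4 to 19.1 and 199.6 to 249.4. Endothelial genes summed to 3.70 to 6.26, 2.78 to 8.70 and 60.3 to 85.2 CPM, and ependymal and choroid plexus genes to 11.3 to 18.2, 13.5 to 19.9 and 9.01 to 17.1.

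Across libraries, *Oxt* and *Avp* went together in inputs. Of the 18 inputs, 8 held 3 *Oxt* counts or fewer and 11 held 3 *Avp* counts or fewer. Over the 18 inputs Pearson's r of log2 CPM was 0.87 and Spearman's rho 0.85 (permutation p = 1e-05, the smallest its resamples can give, and 2e-05; adjusted over 18 relations 0.00018 and 0.00036), r was 0.85 without the 2 libraries farthest from the median of *Oxt* and 0.90 after subtracting the mean of each line and stress group. In D1-IPs r was 0.61 (n = 13; permutation p = 0.0261, adjusted p = 0.0782) and rho 0.63 (p = 0.0236, adjusted p = 0.0807), and r fell to 0.48 without the 2 farthest libraries. In D2-IPs, with 12 of 15 libraries at 3 *Oxt* counts or fewer, r was -0.02.

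*Oxtr* went against the peptide genes in inputs. With *Oxt* r was -0.63 (n = 18; permutation p = 0.00552, adjusted p = 0.0248) and rho -0.60 (adjusted p = 0.0478), and with *Avp* r was -0.66 (permutation p = 0.00294, adjusted p = 0.0176) and rho -0.65 (adjusted p = 0.0359); without the 2 farthest libraries r was -0.63 and -0.52. *Oxtr* and *Avpr1a* had r = -0.68 (permutation p = 0.00178, adjusted p = 0.0160; rho -0.60, adjusted p = 0.0478; r = -0.58 without the 2 farthest). *Oxt* and *Avpr1a* had r = 0.59 (permutation p = 0.00881, adjusted p = 0.0317), but rho was 0.49 (adjusted p = 0.105) and r 0.41 without the 2 farthest libraries. The input that was highest in *Oxt*, D2-input Sus 1, was lowest in *Oxtr* (6.18 CPM) and had the lowest sum of cortical markers among inputs (70.8 CPM). No relation in IPs passed the adjustment.

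**Figure D5:**
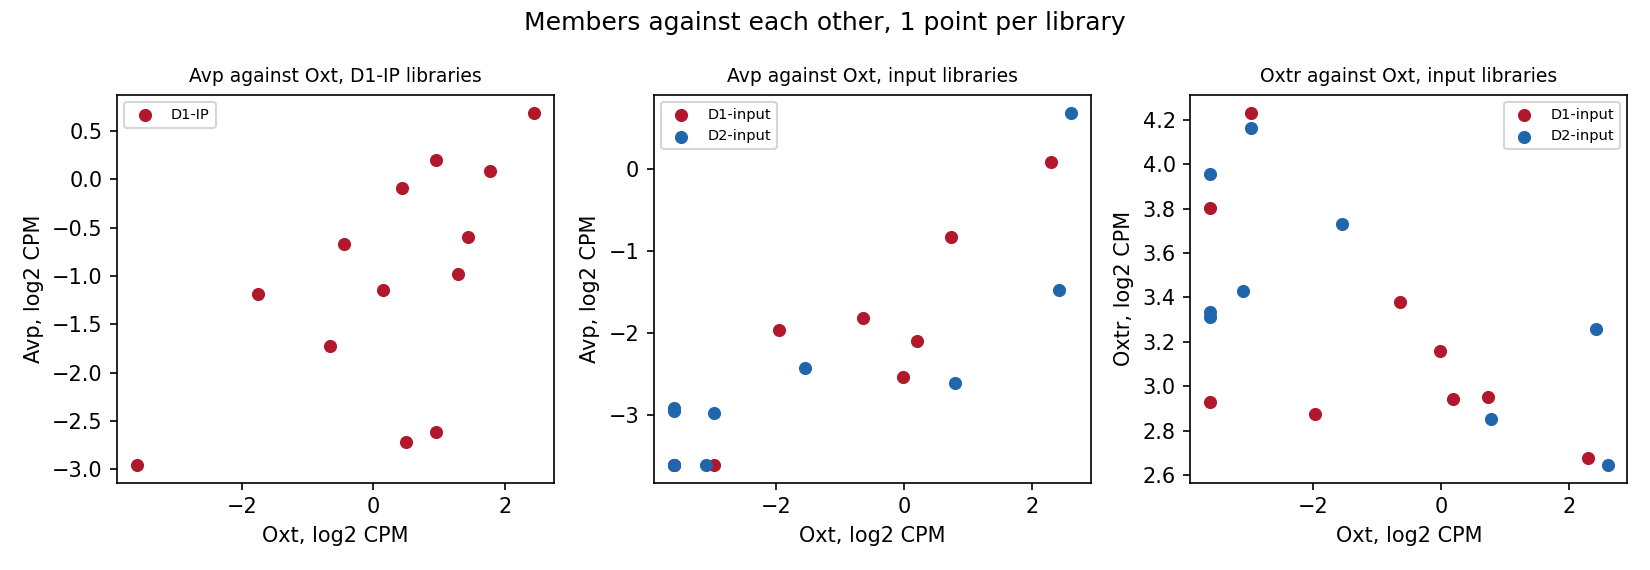
Log2 CPM of *Avp* against *Oxt* in D1-IPs (left) and inputs (middle) and of *Oxtr* against *Oxt* in inputs (right), 1 point per library, red for D1-Cre and blue for D2-Cre. In inputs *Avp* rises with *Oxt* (r = 0.87) and *Oxtr* falls with it (r = -0.63), with both lines along the same trend.

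The genes most like each of the 4 over the 28 IPs follow as a description; these libraries share the difference between lines. *Oxtr* was closest to *Crtac1* (r = 0.98, rho 0.97, r = 0.98 without the 2 farthest libraries), *Ube2ql1* (r = 0.97), *Frzb* (0.96), *Baalc* (0.96) and *Ncald* (0.96). After subtracting group means *Crtac1* was still first (r = 0.87, rho 0.87), followed by *Ephb3* (0.82), *Syt17* (0.81), *Gpc4* (0.81) and *C1ql3* (0.81). *Crtac1* itself ran from 22.04 to 156.1 CPM.

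*Oxt* was closest to *Scd1* (r = 0.88, rho 0.84), *Ermn* (0.88), *Selenop* (0.87), *Trf* (0.87) and *Apoe* (0.87); *Ermn* and *Trf* are genes of oligodendrocytes and *Apoe* of astrocytes. After subtracting group means the closest were *Dcxr* (r = 0.81, rho 0.71, 0.70 without the 2 farthest), *Ebf2* (0.75), *Gatm* (0.75), *Ecel1* (0.74) and *Tspan2* (0.73). *Avp* was closest to *Lrfn5* (r = 0.85, rho 0.86), *Cldn11* (0.85), *Endod1* (0.85), *Steap2* (0.85) and *Sox6* (0.84), and within groups to *Ecel1* (0.78, rho 0.64), *Steap2* (0.75), *Abtb2* (0.73), *Arhgef40* (0.72) and *Ltbp3* (0.72). *Avpr1a* was closest to *Akr1b10* (r = 0.84, rho 0.81), *Sh2d3c* (0.81), *Sema6a* (0.81), *Ugt8a* (0.81) and *Rassf5* (0.81), and within groups to *Nr2e1* (0.75, rho 0.72), *Zap70* (0.74), *Bend6* (0.73), *Akr1b10* (0.73) and *Hcrtr1* (0.71), the receptor of orexins. Without the 2 libraries farthest from the median, the within-group r of the closest gene was 0.83 for *Oxtr*, 0.70 for *Oxt*, 0.68 for *Avp* and 0.63 for *Avpr1a*.

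In the libraries labelled Sirt1-KO the targeted gene was not called. *Sirt1* had 15.2, 16.2, 13.2 and 10.2 CPM in them, a mean of 13.7 ± 2.64 (SD, n = 4), against 14.7 ± 1.46 (SD, n = 4) in D1-IP Con in the scaling of the same table, with a log2 fold change of -0.10 ± 0.133 (SE; edgeR adjusted p = 0.768). Counts over the whole gene cannot show the loss of some of its exons, so the label could not be checked in this way.

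*Oxt* had 0 counts in all 4 libraries labelled Sirt1-KO, against 6, 61, 19 and 47 in the D1-IPs of Con. A count of 0 allows up to 3 counts in each library, 0.109 CPM on average, and *Oxt* was therefore at least 11.01-fold lower than its mean of 1.20 CPM in Con. *Avp* had 1 count in 1 of the 4 libraries and 0 in the others, against 64 counts in Con, a ratio of 0.0159 with an exact 95% interval of 0.000397 to 0.0920. Neither gene passed the filter on low counts. The groups did not overlap for *Oxt* or *Avp*, and the share of all genes for which this holds was not counted. The D1-IPs of Con are libraries whose values chose the genes, so this is a description of both genes, with no test. *Oxtr* and *Avpr1a* are set against the same libraries, so their calls and p-values are a description as well. *Oxtr* had 511, 804, 907 and 306 counts and a log2 fold change of 0.49 ± 0.201 (SE; edgeR adjusted p = 0.234; unadjusted p = 0.0322), and *Avpr1a* had 17, 20, 18 and 13 counts and -0.73 ± 0.400 (SE; adjusted p = 0.382), where 1.66% of 13626 genes were called. *Oxtr* was called without replicate 5 of the libraries labelled Sirt1-KO (0.64; adjusted p = 0.0355). *Sim1* and *Otp* were also at 0 in all 4 libraries, the hypothalamic list summed to 4.88 to 9.08 CPM against 10.5 to 15.9 in D1-IP Con, and the cortical list to 811.2 to 1513 against 380.6 to 1045. The part of the cells of these lists in the result was not tested. These libraries differ from the Con libraries in genotype and are held only by the second count table, which repeats the 4 Con libraries. The genotype and whatever else differed between the sets cannot be told apart.

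The rest of the pathway was read from a list of 35 genes, of which 31 were tested. Of them 13 were higher and 4 lower in D1-IPs than in D2-IPs of defeated mice, 17 of 31 in all where 33.2% of all genes were called, with a median log2 fold change of 0.05 over the list and -0.02 over all genes. Among the higher genes were *Cadps2* (1.21 ± 0.136, SE), which primes dense-core vesicles for release, *Prkca* (0.73 ± 0.0687), a protein kinase C below Gq, *Pcsk5* (0.66 ± 0.110), a prohormone convertase, and *Pou3f2* (0.65 ± 0.0823), a transcription factor of magnocellular and cortical neurons. The lower genes were *Plcb3* (-0.41 ± 0.156, SE), *Rgs2* (-0.25 ± 0.0427), *Pcsk2* (-0.22 ± 0.0451) and *Plcb1* (-0.16 ± 0.0350). In Con, the contrast that chose the 4 genes, 10 of the list were higher and 4 lower, from which nothing is read. The other vasopressin receptors, *Avpr1b* and *Avpr2*, were near 0, with at most 3 counts and 1 count in any IP. In IP over input 28 of 31 were called in D1-Cre mice and 27 of 31 in D2-Cre mice, near the shares of all genes, and the difference between the lines over Res and Sus was called in 12 of 31 (10 higher and 2 lower), where 16.8% of all genes were called. No gene of the list was called by edgeR or DESeq2 in a stress contrast of IPs or inputs. At an unadjusted p under 0.05, edgeR found at most 3 of 31 in any of them, where 1.66% to 5.47% of all genes passed. Among these pathway genes was *Pcsk1*, a prohormone convertase, in D1-IPs of Sus over Con (0.50 ± 0.149, SE, edgeR unadjusted p = 0.00235, adjusted p = 0.846). In the libraries labelled Sirt1-KO, where 30 of the list were tested, 2 were higher, among them *Pcsk5* (0.82 ± 0.181, SE, edgeR adjusted p = 0.0480), and none lower. Over all genes 0.616% were called higher and 1.66% in either direction. The Con libraries in this contrast chose the 4 genes, so these calls are a description as well.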

How the data were processed

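The deposited values are raw counts per gene symbol, made by the authors by trimming reads with cutadapt, aligning to mm10 with STAR and counting with HTSeq; versions, annotation and strand setting are not given in the sources used here, nor is the counter of the Sirt1-KO table. Entries that name no gene held 18.0% to 28.3% of reads in IPs and 35.9% to 40.0% in inputs and were left out, as were 2 columns that match no sample.

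Counts were analysed with edgeR 4.0.16 in R 4.3.3 (TMM; filterByExpr with a minimum count of 10 and total of 15; quasi-likelihood tests over 6 or 12 group means) and DESeq2 1.42.0 as an alternative. Log2 CPM used a prior count of 2. Exact intervals, permutation tests and figures used scipy 1.17.1, numpy 2.4.6 and matplotlib 3.10.9. Intervals and floors cover counting error only. Programs were tested on simulated data. None of 76 replicate pairs was a duplicate (chi-square per gene 3.51 to 98.7).

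The members and all lists were chosen with earlier results of these data known. Named are the 4 genes, the 5 most like each over the 28 IPs in level and within groups, *Drd1*, *Drd2*, *Sirt1*, the nearest 2 neighbours on each side of *Oxt* and *Avp*, and up to 5 called pathway genes per direction. Marker genes, *Avpr1b* and *Avpr2* are named from the fixed lists. Some genes that this rule names are not reported here.

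Input and IP of 1 homogenate share mice by the labels; their deviations from group means had a median correlation of 0.03 (18 pairs, 3 over 0.1). IPs of 1 number had a median of 0.08 (66 pairs, 23 over 0.1). IPs of unlike numbers were not set beside them, so whether numbers pair the IPs was not settled. Alternatives were other size factors, no filter, DESeq2, only the libraries compared, controls only, a replicate block, exact permutation and each library left out.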

Additional observations from a re-analysis of the deposited data

Results flagged for a closer look

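Among 26 sets of 4 or 5 libraries of a gene, 4 held a library far from the others. Chance gives about 1 in 20 for values that spread evenly, which does not hold for sets at or near 0, where a single count among zeros always stands apart. *Oxt* in D1-IP Res replicate 1 was at 3.33 CPM (75 counts), while the other 3 libraries lay between 1.02 and 1.32 CPM. *Oxt* in D2-IP Sus replicate 2 was at 0.500 CPM (12 counts), with the others from 0 to 0.0409 CPM. *Avp* in D2-IP Sus replicate 1 was at 0.533 CPM (16 counts), with the others from 0 to 0.112 CPM. *Avp* in replicate 1 of the libraries labelled Sirt1-KO was at 0.0351 CPM, a single count, with the others at 0.

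Over Res and Sus, the enrichment of IP over input differed between the lines by a test of the difference itself for *Oxt* (4.77 on the log2 scale; edgeR adjusted p = 0.0133) and *Oxtr* (1.72; adjusted p = 5.50e-05). That of *Oxt* was not called without D2-input Res 3 or without D2-input Sus 1.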

How the results depend on the processing

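Of 2328 alternative values of the 4 genes, 2254 kept their direction and side of the threshold, were called in neither fit (87 of them with a change of sign) or, where no test is given, moved by less than 1 SD. Of the rest, 27 lost and 36 gained a call, and 9 without a test moved further. For the exact permutation test, a call in these counts means an unadjusted p under 0.05. In D2-Cre mice, *Oxt* in IP over input changed sign in Res without D2-input Res 3 (from -3.94 to 2.19; range over left-out libraries -4.81 to 2.19) and in Sus without D2-input Sus 1 (from -4.24 to 1.93; range -7.09 to 1.93). Averaged over stress groups, each library left out in turn gave -5.15 to -2.13 for *Oxt* in D2-Cre mice, 1.054 to 2.37 for *Avp* in D1-Cre and -3.07 to -1.34 in D2-Cre mice, and 0.53 to 0.68 for *Avpr1a* in D1-Cre mice. In the libraries labelled Sirt1-KO the same gave 0.32 to 0.64 for *Oxtr* and -4.33 to -3.32 for the difference of *Oxt* in log2 CPM, which is given with no test. *Avp* was called in D1-Cre mice with the homogenate as a replicate block (1.36). In D2-Cre mice it was called with no normalization factor (-2.59), with all genes kept (-2.47), by DESeq2 (-2.40) and with the block (-2.35). The exact permutation test, which is not adjusted over genes and ignores shared homogenates, gave p = 0.0419 for *Avp* (1.16) in D1-Cre mice. For *Avpr1a* (0.47) the same permutation test gave p = 0.0451, also not adjusted. With the replicate number as a block, *Oxtr* was called in the libraries labelled Sirt1-KO (0.69, edgeR adjusted p = 0.000280). Replicate 2 of Con and replicate 5 of Sirt1-KO have no partner of the same number, so that the block fit compares replicates 1, 3 and 4 alone. The Con libraries in this fit chose the genes, so that call is a description. Pathway calls there went from 2 to 11 with the block (5 by DESeq2). The share of all genes called in those fits was not counted, so nothing is read from the change. Whether the numbers pair these pools was not checked. Asking for a fold over 1.5 left 5 of 17 pathway calls in defeated mice, and 1038 of 4723 calls over all genes. The causes were not tested. Counts near 0 limit *Oxt* and *Avp* in D2-IPs and in the libraries labelled Sirt1-KO to bounds and ratios.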
